A study of Mus musculus with 35 samples.

Results

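The heat shock chaperones and cochaperones described here are 50 mouse genes, chosen by symbol from a count table of 55011 gene symbols. They comprise 9 genes of the HSP70 and HSP110 families, 3 of the HSP90 family, 5 HSP90 cochaperones, 11 DNAJ proteins (the HSP40 family), 6 BAG proteins, the 8 subunits of the chaperonin CCT in the list, 5 mitochondrial chaperones, the small heat shock protein gene Hspb1 and the heat shock factors Hsf1 and Hsf2. All 50 passed the filter on low counts, which left 15910 genes for testing. Transcript counts came from RNA sequencing of Tregs, the regulatory T cells, which are CD4+ T cells that restrain immune responses, sorted from visceral adipose tissue (VAT) and from spleen. The VAT groups and the spleen groups came from wild-type male C57BL/6 mice, retired breeders over 35 weeks old under a cycle of 12 h light and 12 h dark. Collection was in both cases at Zeitgeber time (ZT, hours after lights on) 0, 4, 8, 12, 16 and 20. Each library was made from 1000 double-sorted CD4+ CD25+ cells, a gate that takes CD25 and not Foxp3 as its mark of a Treg. There were 17 VAT and 18 spleen libraries, 3 for each tissue and time except VAT at ZT20, which had 2. The labels name replicates by letter and do not say that they are separate animals, and the spread behind every p-value may therefore be technical.

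Chaperones bind unfolded or partly folded proteins. In the HSP70 cycle a DNAJ protein delivers the client and stimulates ATP hydrolysis, and a nucleotide exchange factor, such as a BAG or HSP110 protein, releases it. HSP90 acts later, on kinases and steroid receptors among others, and the ring-shaped CCT folds actin and tubulin. The mitochondrial matrix and the endoplasmic reticulum have their own HSP70 and HSP90 proteins. In T cells, chaperone genes are known to be induced on activation and by heat, and induction by heat runs through HSF1, which binds inverted repeats of a short motif, the heat shock element, near the start of its target genes.

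The promoters below are shown because they hold the heat shock element as searched here, and values of their genes are given further below. The motif was GAANNTTCNNGAA or its reverse complement TTCNNGAANNTTC, so both strands were read, in the 300 bases around each start that RefSeq gives (250 before and 50 from the start onward, GRCm38.p6). Of the 50 members 41 had a promoter in that table and 5 of these, or 12.2%, held the motif, against 179 of 27025 genes, or 0.662%, in the whole table. The 5 were Hspe1 and Hspd1, which share 1 stretch between their divergent starts, Dnajb6, Chordc1 and Hsph1. Capitals mark the bases of each match, and overlapping matches run together. The stretch between a RefSeq start of Hspd1 (on the minus strand) and that of Hspe1 (on the plus strand) is given on the plus strand at chr1:55087933-55088147, where the spans of the 2 genes in GENCODE M21 overlap in part. Another RefSeq promoter of Hspd1, at chr1:55088194-55088493, held no match. The 100 bases before Dnajb6 are on the plus strand at chr5:29735798-29735897, Chordc1 is on the plus strand at chr9:18292260-18292288, and Hsph1 is on the minus strand at chr5:149636280-149636308.
Hspd1 and Hspe1: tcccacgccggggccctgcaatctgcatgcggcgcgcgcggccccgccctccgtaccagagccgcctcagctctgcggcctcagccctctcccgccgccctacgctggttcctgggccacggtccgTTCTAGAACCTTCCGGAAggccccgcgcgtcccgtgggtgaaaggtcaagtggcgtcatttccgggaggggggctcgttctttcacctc
Dnajb6: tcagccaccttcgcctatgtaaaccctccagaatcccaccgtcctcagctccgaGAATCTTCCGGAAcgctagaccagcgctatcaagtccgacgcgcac
Chordc1: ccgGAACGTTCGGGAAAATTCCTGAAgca
Hsph1: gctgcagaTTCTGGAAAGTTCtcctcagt
A match is a description of these letters and not a binding site. None of the 7 CCT subunits with a promoter entry held the motif. Of members with a promoter entry, it was in 1 of 23 higher in VAT, 2 of 10 lower and 2 of 8 not called. The 2 lower were Hspd1 and Hspe1 with their shared stretch. It was in 0 of 6 with a called rhythm in VAT and 0 of 2 in spleen, by the tests described below.

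Depth ran from 2069319 to 6260185 counts per library. The labelled cell type was checked on 7 Treg markers, which summed to 5708 to 7611 CPM (each library's counts on a common scale after TMM) in VAT libraries and 2849 to 3761 CPM in spleen libraries. By the test described below 6 of the 7 were higher in VAT. The other, Cd3e, was lower, at a mean of 171 CPM in VAT, against 327 CPM in spleen. Marker sums of other cell types were 93.6 to 305 CPM in VAT, against 1206 to 3098 CPM in spleen for 7 B cell genes, 6.59 to 19 CPM in VAT, against 19.7 to 76.9 CPM in spleen for 7 macrophage or monocyte genes, 23 to 53.1 CPM in VAT, against 157 to 341 CPM in spleen for 4 endothelial genes, and at most 2.25 CPM in VAT, against 2.88 CPM in spleen for 5 adipocyte genes. The sums of CD8 T cell, neutrophil, stromal or mesothelial and erythroid markers reached at most 36.8, 2.16, 6.91 and 7.98 CPM in VAT, against 21.2, 3.1, 5.01 and 105 CPM in spleen. B cell, macrophage, endothelial and erythroid sums thus moved with the tissue. Of the 4 endothelial genes, 1 had a mean over 1 CPM in VAT, and 1 in spleen. Of 3 stromal or mesothelial genes tested, 2 were higher in VAT by the test described below. The part of other cell types in the tissue differences below was not tested. The slope of log2 expression on transcript length, a measure of how a library favours long or short transcripts, was lowest in VAT at ZT20 (-0.0915 and -0.0788), against -0.0304 to 0.0571 in the other VAT libraries. At ZT20 in spleen it lay at -0.0486 to -0.0369, against -0.0657 to 0.0583 in the other spleen libraries. The lowest spleen library was ZT16 B at -0.0657, with ZT16 C at -0.0236 and ZT16 A at 0.00445. Unless another tool is named, p-values are from edgeR's quasi-likelihood test, adjusted by the Benjamini-Hochberg method across all 15910 genes, and a gene is called at an adjusted p under 0.05.

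Between the tissues, 27 of the 50 chaperone genes were higher in VAT Tregs, 14 were lower and 9 were not called. That is 54% higher and 28% lower, against 28.4% higher and 33.8% lower, or 62.2% in either direction, of all genes tested. The median log2 fold change of VAT over spleen was 0.19 over the members and -0.10 over all genes tested. By family, 7 of 9 HSP70 and HSP110 genes, all 3 HSP90 genes, 8 of 11 DNAJ genes and 3 of 6 BAG genes were higher in VAT, while 5 of 8 CCT subunits and all 5 mitochondrial chaperones were lower. Without TMM, on library totals, the split was 16 higher and 27 lower (18% and 53.5% of all genes), with the median of all genes at -0.45, so the calls of small fold changes hold relative to the TMM scaling. In a bulk library, fewer cells of a type and less RNA per cell cannot be told apart.

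**Figure D1:**
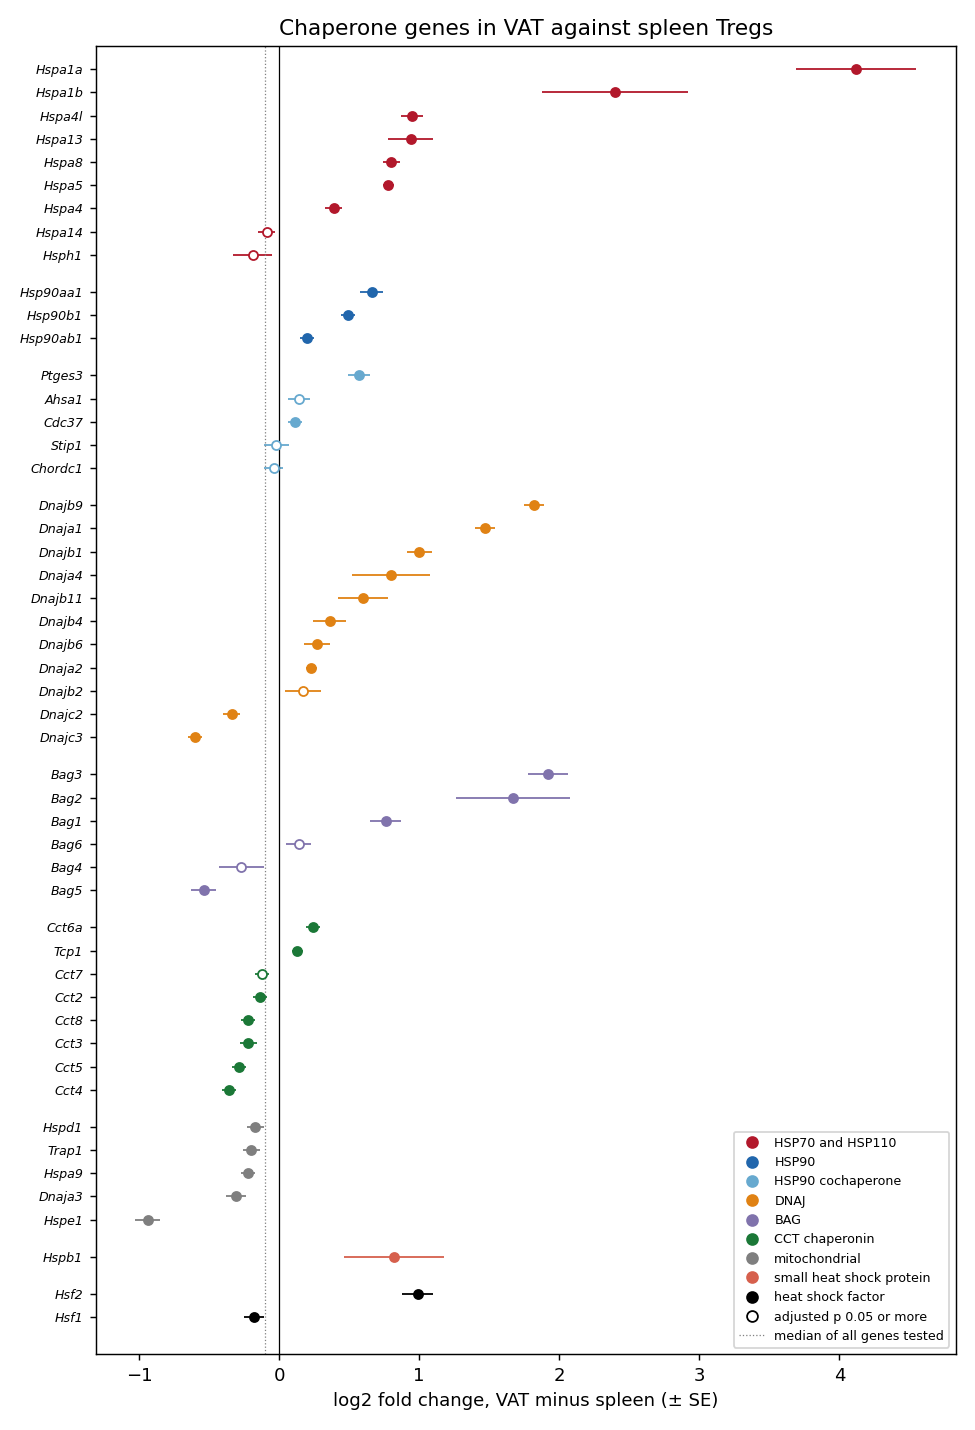
Log2 fold change of VAT over spleen (x axis, ± SE) for the 50 chaperone genes, grouped by family and ordered within it. Filled points were called, open points were not, and the dotted line is the median of all genes tested; the HSP70, HSP90 and DNAJ genes lie mostly to the right, up to 4.12 for Hspa1a, and the mitochondrial genes all lie to the left, down to -0.94 for Hspe1.

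Of the HSP70 genes, the most abundant was Hspa8, the constitutive cytosolic HSP70 (HSC70; chromosome 9, 40800984 to 40810087). It ran from 1347 to 2221 CPM in the 17 VAT libraries, with a median of 1754 CPM, against 570 to 1817 CPM in the 18 spleen libraries, with a median of 1056 CPM. Most VAT libraries were higher than most spleen libraries, but the ranges overlapped through 2 spleen libraries of ZT16. Its log2 fold change was 0.80 ± 0.06 (SE; adjusted p = 1.83e-13), and its mean was higher in VAT at 6 of 6 times.

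Hspa5, or BiP, the HSP70 of the endoplasmic reticulum (chromosome 2, 34771970 to 34777547), ran from 1015 to 1450 CPM in VAT, against from 601 to 909 CPM in spleen. Every VAT library was above every spleen library, and the log2 fold change was 0.78 ± 0.04 (SE; adjusted p = 5.17e-18). Chaperone genes separated in this way were Hspa5, Hspa4l, Dnaja1, Dnajb9 and Bag3, or 5 of 50, against 6.4% of all genes. Dnajc3 was separated in the opposite direction, with all VAT libraries lower, as were 4.02% of all genes.

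The stress-inducible copies Hspa1a and Hspa1b (chromosome 17, 34969190 to 34972156 and 34956436 to 34959238) showed the largest fold changes of the 50 genes but were rare. Hspa1a averaged 6.96 ± 4.33 CPM in VAT over 17 libraries, against 0.813 ± 1.38 CPM over the 18 spleen libraries (SD), 8 of which had no count. Hspa1b averaged 1.61 ± 0.962 CPM in VAT, against 0.639 ± 1.25 CPM in spleen. Their log2 fold changes were 4.12 ± 0.43 and 2.40 ± 0.52 (SE; adjusted p = 1.6e-10 and 0.000156), and because of the zeros those sizes shift with the prior count used in fitting. Of the 25-base words of Hspa1a 65.5% also occur in Hspa1b, as do 69.6% of those of Hspa1b in Hspa1a, so reads of the pair cannot be assigned with certainty. Summed, the pair had a log2 fold change of 3.73. Without the ZT20 libraries, and without spleen ZT16 B, Hspa1b did not pass the filter on low counts and was not tested.

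Among the other HSP70 relatives, Hspa4l, an HSP110 family member, averaged 90 ± 17 CPM in VAT, against 46.6 ± 9.16 CPM in spleen (log2 fold change 0.95 ± 0.08, SE). Hspa13, a microsomal HSP70 relative, was higher by 0.94 and Hspa4, another exchange factor of the HSP110 type, by 0.39 on the log2 scale. Hspa14, which acts at the ribosome, was at 96.8 CPM in VAT, against 103 CPM in spleen and was not called. Hsph1, the heat-inducible HSP110, was at 132 ± 55.2 CPM in VAT, against 150 ± 94.2 CPM in spleen and was not called either (log2 fold change -0.19 ± 0.14, SE; adjusted p = 0.241). Its libraries ran from 47.1 to 259 CPM in VAT, against from 45 to 390 CPM in spleen, as described with the time course.

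All 3 HSP90 genes were higher in VAT. Hsp90aa1, the inducible cytosolic form, averaged 123 ± 18.9 CPM in VAT, against 79.7 ± 21.9 CPM in spleen (log2 fold change 0.66 ± 0.08, SE). Hsp90b1, or GRP94, the form of the endoplasmic reticulum, averaged 525 ± 87.5 CPM in VAT, against 373 ± 69.4 CPM in spleen (0.49 ± 0.05). Hsp90ab1, the constitutive cytosolic form (chromosome 17, 45567775 to 45573271), averaged 2387 ± 429 CPM in VAT, against 2148 ± 621 CPM in spleen, and its log2 fold change of 0.20 ± 0.05 turned to -0.15 on library totals. On that scale it was called lower in VAT. Hsp90aa1 shares 53.4% of its 25-base words with other annotated genes, mostly pseudogenes, and Hspa8 46.8%, so part of the reads of both could have been dropped or assigned elsewhere.

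The HSP90 cochaperones differed less. Ptges3, the cochaperone p23, averaged 104 ± 23.3 CPM in VAT, against 69.5 ± 10.7 CPM in spleen and was higher (log2 fold change 0.57 ± 0.08, SE; adjusted p = 7.27e-08). Cdc37, which loads kinases onto HSP90, was barely called at 0.11 ± 0.05 (adjusted p = 0.0491). Its call was lost in 21 of 35 fits that left out 1 library, and on library totals it was called lower at -0.24. Stip1, which bridges HSP70 and HSP90, Ahsa1, which stimulates the HSP90 ATPase, and Chordc1 had log2 fold changes of -0.02, 0.14 and -0.04 and were not called.

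Of the 11 DNAJ genes 8 were higher in VAT and 2 lower. Dnajb9, a DNAJ protein of the endoplasmic reticulum (ERdj4; chromosome 12, 44205559 to 44210326), ran from 115 to 183 CPM in VAT, with a median of 149 CPM, and from 33.5 to 53.4 CPM in spleen, with a median of 40.6 CPM. Its log2 fold change was 1.82 ± 0.07 (SE; adjusted p = 2.53e-23), a 3.52-fold difference. Dnaja1, a cytosolic partner of HSC70 (chromosome 4, 40722150 to 40737149), ran from 361 to 564 CPM in VAT, against from 112 to 329 CPM in spleen, with a fold change of 2.78. The highest spleen library, at 329 CPM, was 1 of ZT16 and came near the lowest VAT library without reaching it.

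Dnajb1, the heat-inducible partner of HSP70, averaged 206 ± 25.3 CPM in VAT, against 106 ± 40.2 CPM in spleen and was 2-fold higher in VAT (log2 fold change 1.00 ± 0.09, SE). Dnaja2, Dnaja4, Dnajb4, Dnajb6 and Dnajb11 were also higher, by 0.23 to 0.80 on the log2 scale. The call of Dnajb4 was lost without the ZT20 libraries. Library totals put Dnaja2 at -0.12 and Dnajb6 at -0.08. On that scale Dnaja2 was called lower, and the calls of Dnaja4, Dnajb4, Dnajb6 and Dnajb11 were lost. Of the exon bases of Dnaja4 44.1% overlap Wdr61 on the opposite strand. Dnajb2 was not called. The 2 lower genes were Dnajc3 (P58IPK, chromosome 14, 118937976 to 118981697), an inhibitor of the stress kinase PERK, and Dnajc2, which acts at the ribosome. Dnajc3 ran from 116 to 182 CPM in VAT, against from 193 to 258 CPM in spleen (log2 fold change -0.60 ± 0.05, SE; adjusted p = 1.57e-12). Dnajc3 was thus lower in VAT while the other 5 members of the endoplasmic reticulum, Hspa5, Hspa13, Hsp90b1, Dnajb9 and Dnajb11, were higher, and the median of the 6 was 0.69.

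Of the BAG genes, Bag3, which couples HSP70 to selective autophagy (chromosome 7, 128523616 to 128546981), ran from 19.8 to 60.8 CPM in VAT, with a median of 32.6 CPM, against 4.89 to 19.1 CPM in spleen, with a median of 8.27 CPM. The lowest VAT library was just above the highest spleen library, and the fold change was 3.78 (log2 fold change 1.92 ± 0.14, SE; adjusted p = 2.88e-15). Bag2, an inhibitor of the ubiquitin ligase CHIP, averaged 4.72 ± 2.65 CPM in VAT, against 1.57 ± 1.63 CPM in spleen, and Bag1, the founding exchange factor of the family, 30.1 ± 8.02 CPM in VAT, against 18.2 ± 4.71 CPM in spleen, and both were higher in VAT. Bag5 was lower, at 49.4 ± 9.55 CPM in VAT, against 72.5 ± 14.3 CPM in spleen (log2 fold change -0.54 ± 0.09, SE). Bag4 and Bag6 were not called.

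The CCT subunits were set close together, with log2 fold changes between -0.36 and 0.24 and a median of -0.18. Cct4 was lowest, at 403 ± 46.5 CPM in VAT, against 518 ± 50.3 CPM in spleen (-0.36 ± 0.05, SE; adjusted p = 1.18e-08). Cct2, Cct3, Cct5 and Cct8 were also lower, by -0.14 to -0.29, and Cct7 was not called (adjusted p = 0.0619). Tcp1 and Cct6a were higher by 0.13 and 0.24. On library totals they were at -0.21 and -0.11 and both were called lower, so that no subunit was higher on that scale. The call of Tcp1 was also lost without the ZT20 libraries. That of Cct2 was lost with no filter on low counts. Exons of Tcp1 and Cct6a overlap genes on the opposite strand, Acat3 over 16.9% of bases and Psph over 15.3%.

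The mitochondrial chaperones were all lower in VAT. Hspe1, the lid HSP10 of the mitochondrial chaperonin (chromosome 1, 55088132 to 55091307), averaged 25.8 ± 6.54 CPM in VAT, against 51 ± 13.4 CPM in spleen, a log2 fold change of -0.94 ± 0.09 (SE; adjusted p = 1.49e-11). Hspd1, the barrel HSP60 transcribed in the opposite direction from the promoter region printed above (chromosome 1, 55077835 to 55088243), averaged 107 ± 15.4 CPM in VAT, against 121 ± 18.8 CPM in spleen and was lower by a smaller amount, -0.17 ± 0.06 (adjusted p = 0.0265), a call lost in 3 of 35 fits that left out 1 library. Of the words of Hspd1 57% and of Hspe1 33.4% occur in other annotated genes, mostly pseudogenes. Hspa9, the mitochondrial HSP70, Trap1, the mitochondrial HSP90, and Dnaja3, the mitochondrial DNAJ, had log2 fold changes of -0.22, -0.20 and -0.31. With no filter on low counts Hspd1 and Trap1 were no longer called.

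The small heat shock protein gene Hspb1 (HSP25) was at 2.55 ± 2.11 CPM in VAT, against 1.44 ± 0.72 CPM in spleen, and its call (0.82 ± 0.36, SE; adjusted p = 0.0464) was lost in 22 of 35 fits that left out 1 library. Hsf1, the main activator of the heat shock response, was lower at 104 ± 14.4 CPM in VAT, against 117 ± 17.9 CPM in spleen (-0.18 ± 0.07), a call lost with no filter on low counts, without the ZT20 libraries and without spleen ZT12 B. Hsf2, a related factor, was higher at 48.9 ± 12.1 CPM in VAT, against 24.8 ± 5.1 CPM in spleen (0.99 ± 0.11). The mRNA level of Hsf1 is not a measure of its activity, which is set on the protein.

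Of 74 other genes of the chaperone pathways (further HSP70, DNAJ, small heat shock, FKBP and prefoldin genes) 66 were tested. Of these, 18 (27.3%) were higher in VAT, 18 (27.3%) lower and 30 not called, near or below the 28.4% and 33.8% of all genes. Their median log2 fold change was -0.04. Among those called, the 3 with the largest log2 fold changes upward were Hspa2, at 61.8 ± 17.5 CPM in VAT, against 2.65 ± 2.54 CPM in spleen (4.77 ± 0.24, SE), Dnajb13, at 87.4 ± 16.2 CPM in VAT, against 14.9 ± 4.85 CPM in spleen, and Fkbp5, a glucocorticoid-induced cochaperone of steroid receptors, at 88.1 ± 25.6 CPM in VAT, against 26.2 ± 7.21 CPM in spleen. The 3 downward among those called were Hspa12a, Hspb11 and Pfdn6, at -2.98, -0.79 and -0.72. Of 13 genes known to respond to HSF1 but outside the 50, 10 were tested, 6 were higher and 2 lower, with a median of 1.25. Among the 6 were the metallothionein genes Mt1 and Mt2 (5.99 and 5.38), which also respond to metals and to glucocorticoids.

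A list of 24 immediate early genes, which rise within minutes of stimulation or of tissue handling, differed between the tissues as well. Their summed level was 42712 to 60456 CPM in VAT, against 1311 to 2018 CPM in spleen, and 21 of the 24 were higher in VAT and 1 lower. All 24 had a mean over 1 CPM in VAT, as did 22 in spleen. Their part in the chaperone differences was not tested, and tissue and handling before the sort cannot be told apart.

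Per kilobase of exon, the level of Hsp90ab1 was the highest of the 50 in both tissues, at 796 CPM per kb in VAT and 716 CPM per kb in spleen. In VAT it was followed by Hspa8 (407), Hspa5 (291), Cct8 (159), Cct2 and Cct5 (both 153) and Dnaja2 (152). In spleen it was followed by Hspa8 (242), Cct5 (188), Cct8 (187), and Hspa5 and Cct2 (both 170 CPM per kb). From Cct8 to Dnaja2 in VAT, and from Cct5 to Cct2 in spleen, neighbours in this order differed by less than the spread between libraries.

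**Figure D2:**
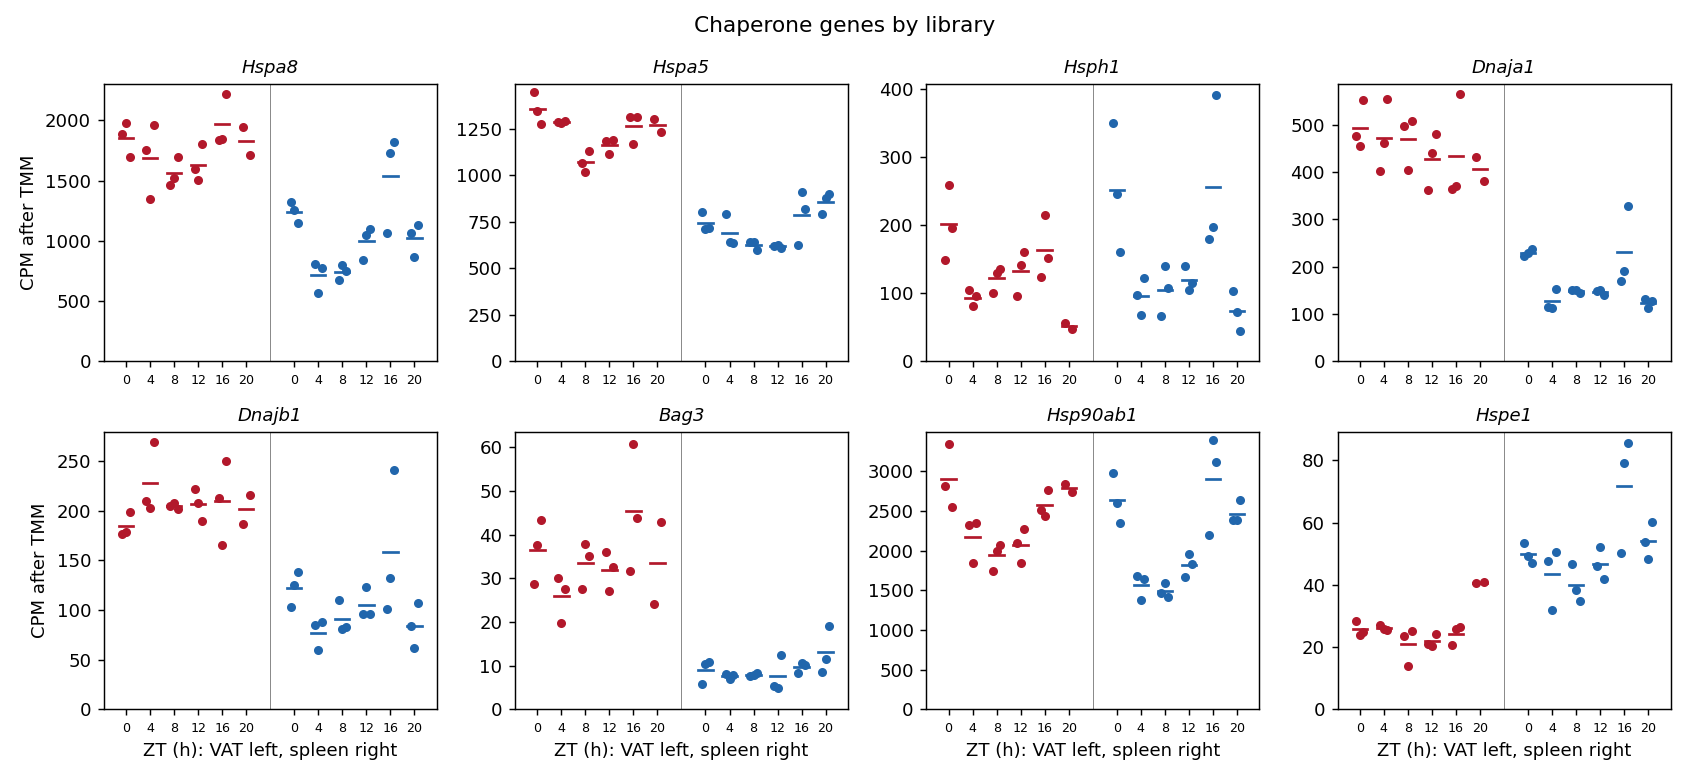
CPM after TMM (y axis, from 0) in each library of 8 chaperone genes, by Zeitgeber time (x axis), with VAT on the left and spleen on the right of each panel; points are libraries and bars are means of 3 libraries (2 in VAT at ZT20). Hspa5, Dnaja1 and Bag3 are separated between tissues at all times, Hspe1 is lower in VAT, and Hspa8, Hsph1, Dnaja1 and Dnajb1 are high at ZT0 and ZT16 in spleen.

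The course over the day was tested with a 24 h cosine and sine in each tissue. In VAT 8 of the 50 genes had a called rhythm, or 16%, against 1.88% of all genes tested, and in spleen 5, or 10%, against 1.99%. In VAT they were Hsp90ab1, Hsp90b1 and 6 CCT subunits (Tcp1, Cct3, Cct4, Cct5, Cct6a and Cct7). In spleen they were Hsp90ab1, Hsp90b1, Hspa8, Hspa5 and Bag4. Of the 66 other genes of the chaperone pathways tested, 6 (9.09%) were called in VAT and 1 (1.52%) in spleen, the latter below the share of all genes. Among the members, no HSP70, DNAJ, BAG or mitochondrial gene was called in VAT, and no CCT, DNAJ or mitochondrial gene in spleen. The fitted amplitudes were not large: their median was 0.38 on the log2 scale, peak to trough, in VAT and 0.38 in spleen, below the 0.52 in VAT and 0.48 in spleen of all genes tested, many of which are low and noisy.

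Fitted peaks gathered late in the dark phase, whether or not a gene was called. In VAT 38 of the 50 peaks (76%) lay between ZT16 and ZT24, against 41.4% of all genes, and in spleen 31 (62%), against 36.2%. In VAT 21 genes (42%) had their highest mean at ZT20, against 29.6% of all genes, and 23 (46%) their lowest at ZT8, against 21.2%. In spleen 21 (42%) had their highest mean at ZT16, against 14.3% of all genes, and 13 each (26%) had their lowest at ZT4 and at ZT8, against 13.5% at ZT4 and 17.8% at ZT8. The members share libraries, so these counts are not independent of each other.

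**Figure D3:**
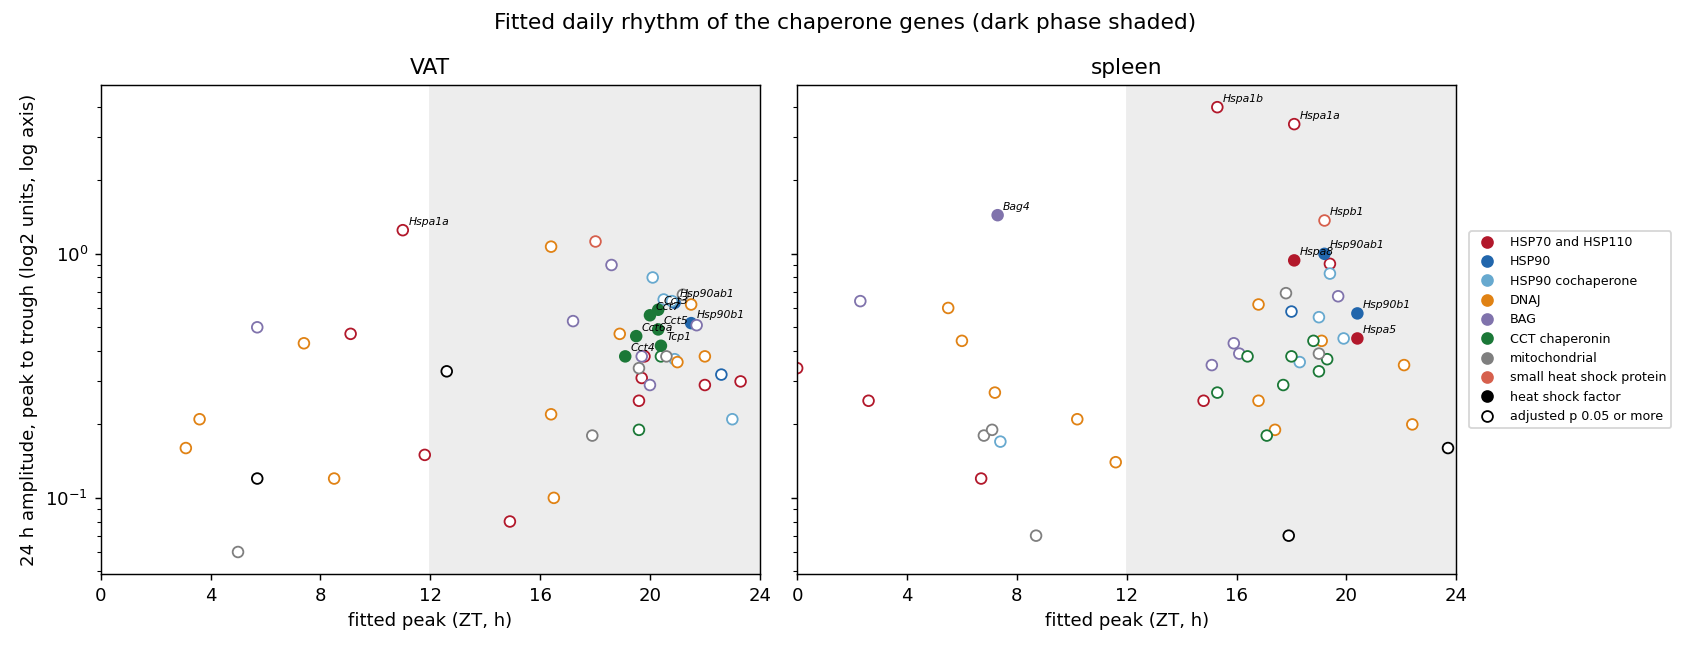
Fitted 24 h rhythm of the 50 chaperone genes in VAT (left) and spleen (right): peak time (x axis, ZT in h, dark phase shaded) against amplitude (y axis, log2 units peak to trough, log axis), with filled points for called genes. Most points lie between ZT16 and ZT24 (38 in VAT and 31 in spleen), the CCT subunits lie together at ZT19.1 to ZT20.4 in VAT, and Bag4 stands apart in spleen at ZT7.3.

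Hsp90ab1 had the clearest daily course in both tissues. In VAT its libraries were at 2816, 3338 and 2554 CPM at ZT0, 2319, 1848 and 2352 at ZT4, 1749, 1997 and 2075 at ZT8, 2101, 1849 and 2275 at ZT12, 2517, 2440 and 2761 at ZT16, and 2843 and 2739 at ZT20. In spleen they were at 2980, 2599 and 2343 CPM at ZT0, 1678, 1373 and 1637 at ZT4, 1468, 1590 and 1413 at ZT8, 1668, 1964 and 1833 at ZT12, 2195, 3398 and 3119 at ZT16, and 2382, 2382 and 2635 at ZT20. In both tissues the libraries of ZT0, ZT16 and ZT20 were above those of ZT8. The amplitude was 0.63 ± 0.13 with a peak at ZT20.9 in VAT (adjusted p = 0.0186) and 1.00 ± 0.12 with a peak at ZT19.2 in spleen (adjusted p = 2.4e-05). The VAT call was kept in 34 of 35 fits that left out 1 library, being lost without VAT ZT8 B, and the spleen call in 35.

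Hsp90b1 in the endoplasmic reticulum followed a similar course, peaking at ZT21.5 in VAT (amplitude 0.52 ± 0.12) and at ZT20.4 in spleen (0.57 ± 0.11). Its lowest means were 439 CPM in VAT, against 315 CPM in spleen, both at ZT8, and its highest 662 CPM in VAT, against 451 CPM in spleen, both at ZT0. The spleen call was kept in 35 of 35 fits without 1 library and the VAT call in 25. Hspa5, its neighbour in the same compartment, was called in spleen (0.45 ± 0.09, peak ZT20.4, adjusted p = 0.0136) and not in VAT (0.29 ± 0.10, peak ZT22.0, adjusted p = 0.184). In spleen Hspa5 was at 794, 880 and 902 CPM at ZT20, against 620, 627 and 610 CPM at ZT12, and these libraries did not overlap. The spleen call was lost with the length slope as a covariate (adjusted p = 0.0622) and without the ZT20 libraries (adjusted p = 0.131).

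Hspa8 had a called rhythm in spleen, peaking at ZT18.1 with an amplitude of 0.94 ± 0.16 (adjusted p = 0.00576), kept in 35 of 35 fits without 1 library. Its spleen libraries were at 1319, 1258 and 1150 CPM at ZT0, 806, 570 and 777 at ZT4, 673, 797 and 749 at ZT8, 844, 1046 and 1100 at ZT12, 1066, 1730 and 1817 at ZT16, and 1065, 863 and 1131 at ZT20. The libraries of ZT0 were all above those of ZT4 and ZT8, and at ZT16 library A was below B and C. In VAT the amplitude was 0.31 ± 0.17 (adjusted p = 0.522), and the group means lay between 1560 CPM at ZT8 and 1968 CPM at ZT16. The test of the difference in rhythm gave an adjusted p of 0.475.

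Some members in spleen, picked out after their values were seen, had higher means at ZT0 and at ZT16 than at ZT20, which lies between. Other stress-inducible members did not: Bag3 averaged 9.06, 9.63 and 13.1 CPM in spleen at ZT0, ZT16 and ZT20, and Hspb1 1.9, 1.68 and 2.22 CPM. Hsph1 was at 349, 245 and 161 CPM at ZT0, 96.8, 68.1 and 123 at ZT4, 66.2, 140 and 108 at ZT8, 140, 105 and 115 at ZT12, 179, 197 and 390 at ZT16, and 103, 72.4 and 45 at ZT20. All libraries of ZT0 and ZT16 were above all libraries of the other 4 times. The cosine was not called (adjusted p = 0.634), while a test of any difference among the 6 group means was (adjusted p = 0.0066).

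By that test 11 of the 50 genes were called in spleen, or 22%, against 2.02% of all genes. They were the 5 with a called cosine and Hsph1, Chordc1, Dnaja1, Dnajb1, Hspa1a and Stip1, with adjusted p of 0.000378 for Chordc1, 0.00191 for Dnaja1, 0.0242 for Dnajb1, 0.0163 for Hspa1a and 0.0053 for Stip1. Chordc1 was at 239, 209 and 153 CPM at ZT0, 150, 190 and 223 at ZT16, and 100, 96.5 and 110 at ZT20. Dnaja1 was at 223, 228 and 237 CPM at ZT0, 170, 191 and 329 at ZT16, and 131, 112 and 127 at ZT20. In both genes the libraries of ZT20 were below all of those at ZT0 and ZT16. Stip1 was at 336, 264 and 186 CPM at ZT0, 196, 303 and 331 at ZT16, and 196, 146 and 167 at ZT20, and there the groups overlapped.

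Dnajb1 averaged 158 CPM in spleen at ZT16, where its libraries were at 101, 132 and 241 CPM, against 77.2 CPM at ZT4. Hspa1a had counts of 0 in all 3 spleen libraries of ZT4, and was at 0, 3.71 and 4.6 CPM at ZT16. Library A of spleen at ZT16 was the lowest of the 3 in Hspa8, Hsp90ab1, Hsph1, Dnaja1, Dnajb1, Chordc1, Stip1, Hspa1a and Hspe1, so the ZT16 level of these genes varied between libraries. Of the genes in this group, Hsph1 and Chordc1 hold the heat shock element in the promoters printed above. Dnaja1, Dnajb1, Stip1 and Hspa1a held no match in the stretches searched, and Hspa8, whose promoter is not in the table used, was not searched.

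In VAT the test of group means called 7 genes, or 14%, against 5.11% of all genes: Hsp90ab1, Hsp90b1, Cct5, Cct7, Tcp1, Hsph1 and Stip1. Hsph1 in VAT was at 148, 259 and 196 CPM at ZT0 and 55.9 and 47.1 CPM at ZT20, and these libraries did not overlap. Stip1 in VAT was at 293, 296 and 210 CPM at ZT0, above its libraries of ZT8 at 103, 131 and 163 CPM. Without the ZT20 libraries, the test of the 5 remaining means called none of the 50 genes in VAT, against 0.117% of all genes, and 8 in spleen, against 0.466%. Hsph1, Chordc1, Dnaja1 and Stip1 were among the 8, and Dnajb1, Hspa1a and Hspa5 were not. Dnaja1 and Dnajb1, called in spleen over all 6 times, had group means in VAT between 407 and 494 CPM and between 185 and 227 CPM (adjusted p = 0.828 and 0.929). A difference between the tissues in these courses was not called for Hsph1 or Dnaja1 (adjusted p = 0.829 and 0.258). For Dnajb1 the difference of the 24 h cosine and sine was not called either (adjusted p = 0.62).

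**Figure D4:**
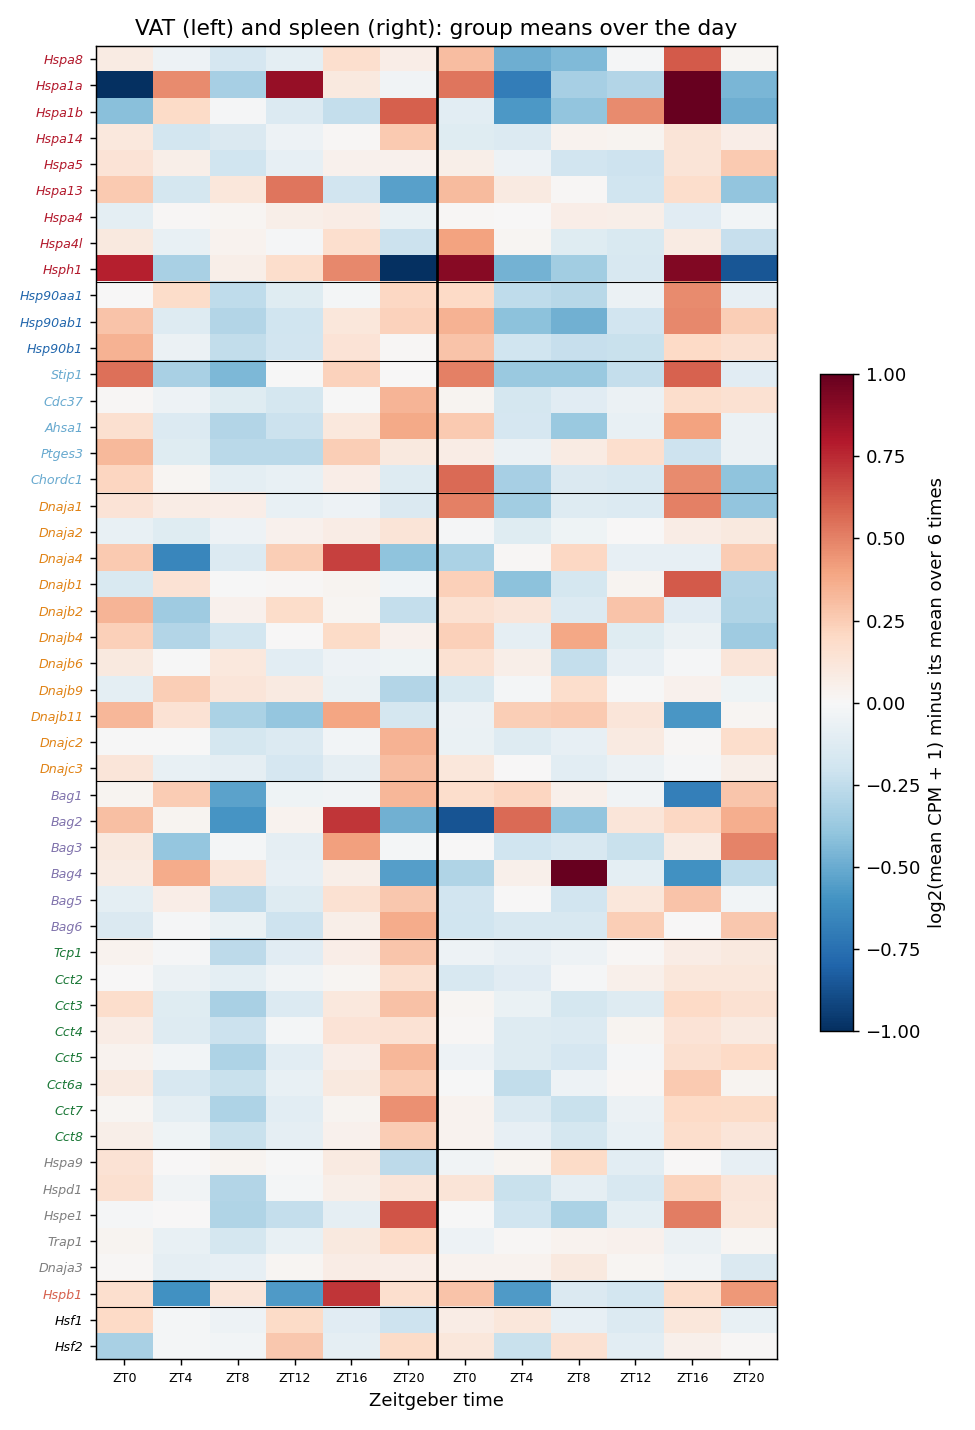
Group means of the 50 chaperone genes over the day, as log2(mean CPM + 1) minus the gene's mean over 6 times within the tissue (colour), for VAT (left 6 columns) and spleen (right 6 columns), with lines between families. The CCT rows are lowest at ZT8 and highest at ZT20 in VAT, and Hspa8, Hsph1, Stip1, Chordc1, Dnaja1 and Dnajb1 are high at ZT0 and ZT16 in spleen.

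In VAT 6 of the 8 CCT subunits were called, and Cct2 (adjusted p = 0.495) and Cct8 (adjusted p = 0.115) were not. Each of the 8 had its lowest mean at ZT8 and its highest at ZT20, with fitted peaks between ZT19.1 and ZT20.4, and the amplitudes ran from 0.19 for Cct2 to 0.59 for Cct3. Cct7 was at 475, 482 and 375 CPM at ZT0, 459, 355 and 414 at ZT4, 340, 339 and 380 at ZT8, 439, 365 and 416 at ZT12, 446, 413 and 478 at ZT16, and 612 and 588 at ZT20. Both ZT20 libraries were above the other 15. Its amplitude was 0.56 ± 0.12 (adjusted p = 0.0191). The other 2 largest were Cct3 (0.59 ± 0.13, adjusted p = 0.0293) and Cct5 (0.49 ± 0.11, adjusted p = 0.0321).

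In spleen no CCT subunit was called, with Cct7 nearest at an amplitude of 0.44 ± 0.11 (adjusted p = 0.053), and the fitted peaks lay between ZT15.3 and ZT19.3. DESeq2 did call Cct4, Cct5, Cct6a and Cct7 in spleen, and limma-voom and a fit of the spleen libraries alone called Cct7. A fit of the VAT libraries alone called no CCT subunit. At an unadjusted p under 0.05, 7 of the 8 had a rhythm in VAT and 7 in spleen, as did 2789 of the 15910 genes in VAT and 2478 in spleen. A test of the difference in rhythm called none of the 50 genes, against 0.00629% of all genes; 6 members had an unadjusted p under 0.05, as did 1447 of the 15910 genes, and DESeq2 and limma-voom called none. The smallest p of that test were those of Ptges3, Hspa1b and Hspa8. Ptges3 had an amplitude of 0.64 ± 0.17 in VAT and 0.17 ± 0.16 in spleen, neither called.

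The rhythm calls in VAT changed when the length slope of the libraries was added to the fit. That slope comes from the same counts and was lowest in the 2 ZT20 libraries of VAT. Slope and time therefore cannot be told apart there. With the slope as a covariate, 0 of the 50 genes had a called cosine in VAT, where 0.17% of all genes were called, and 3 had one in spleen (Hsp90ab1, Hsp90b1 and Hspa8), where 0.666% were. Without the ZT20 libraries the cosine was called for 2 genes in VAT (Hsp90ab1 and Hsp90b1), against 0.117% of all genes, and for 14 in spleen, against 1.95%. The 14 included Hsph1, Chordc1, Dnaja1, Dnajb1 and Stip1 and did not include Hspa5. With the slope added to the group means, 2 genes were called in VAT (Hsp90ab1 and Hsp90b1, 0.226% of all genes) and 9 in spleen (0.823%), among them Hsph1 (adjusted p = 0.00988), Chordc1, Dnaja1, Dnajb1, Hspa1a and Stip1. In the 6 called CCT genes the call was lost without either of the ZT20 libraries of VAT, and also without VAT ZT8 B or VAT ZT8 C. The part of the length slope in the CCT course was not tested apart from these fits.

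**Figure D5:**
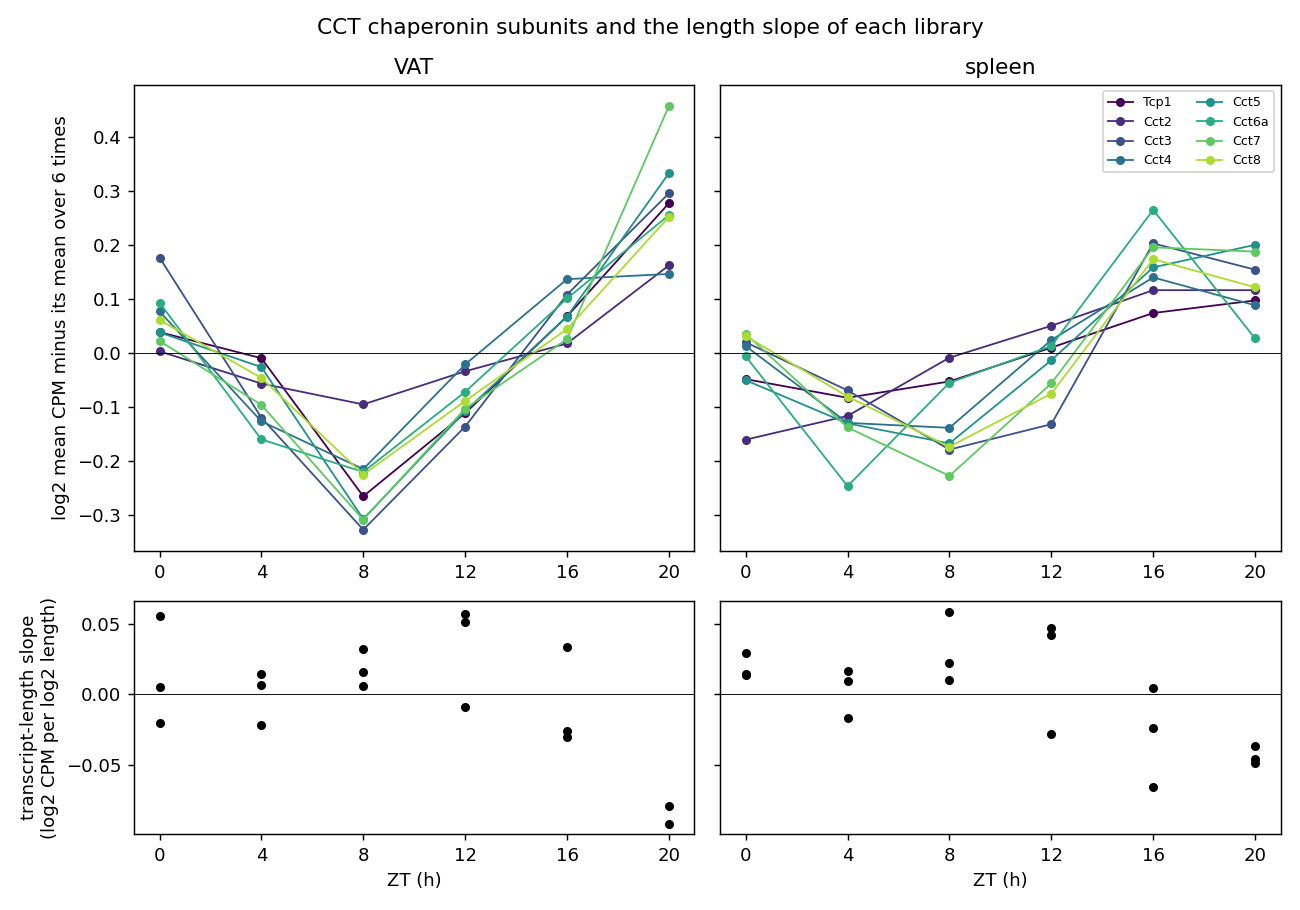
Top: the 8 CCT subunits as log2 mean CPM minus the mean over 6 times (y axis) by Zeitgeber time (x axis) in VAT (left) and spleen (right). Bottom: transcript-length slope of each library (points); the subunits in VAT are lowest at ZT8 and highest at ZT20, where both libraries have slopes of -0.0915 and -0.0788.

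Hspe1 was at its highest in VAT at ZT20, though its rhythm was not called. Its VAT libraries were at 40.7 and 40.8 CPM at ZT20 and at 13.9 to 28.5 CPM at the other 5 times. In spleen its ZT16 libraries were at 50.2, 79.2 and 85.6 CPM, of which B and C were above all other spleen libraries, and A lay within the range of the other times. The amplitudes were 0.68 ± 0.21 in VAT (adjusted p = 0.128) and 0.69 ± 0.19 in spleen (adjusted p = 0.0752). Hspd1, which shares its promoter region, had amplitudes of 0.38 ± 0.14 in VAT and 0.39 ± 0.13 in spleen, also not called. Hspe1 is also among the shortest members, with 1474 exon bases. The 6 CCT genes called in VAT had from 2766 (Cct5) to 6778 (Cct7) exon bases. A part of transcript length in these courses was not tested.

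Bag4, which keeps death receptors silent in the absence of ligand, was the member whose called peak lay in the light phase. In spleen it was at 28.4, 38.2 and 32.6 CPM at ZT8 and at 4.77 to 19.5 CPM at the other times, so that the ZT8 libraries stood above all others. The amplitude was 1.44 ± 0.35 with a peak at ZT7.3 (adjusted p = 0.0304), and the call was lost in 6 of 35 fits without 1 library, namely without each of the 3 spleen libraries of ZT8, spleen ZT16 B, spleen ZT16 C or spleen ZT20 C. In VAT it ran from 5.27 to 20.5 CPM with no call (0.50 ± 0.37, adjusted p = 0.72). Exons of Gm17484 on the opposite strand overlap 14.8% of its exon bases.

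Of the 66 other chaperone pathway genes tested, 6 (9.09%) had a called rhythm in VAT, against 1.88% of all genes. In spleen 1 (1.52%) had one, against 1.99%. Fkbp4, an HSP90 cochaperone of steroid receptors, was the member of that list called in both tissues, peaking at ZT20.1 with an amplitude of 1.05 in VAT (adjusted p = 0.00111) and at ZT18.8 with one of 0.77 in spleen (adjusted p = 0.013). Its peaks fell within 1 h of those of Hsp90ab1. Stub1, the ubiquitin ligase CHIP, Nudc and Grpel1, the mitochondrial exchange factor, were called in VAT with peaks between ZT19.8 and ZT20.7, and Fkbp5 and Pdcl with peaks at ZT14.4 and ZT8.6. The calls of this list were not followed with the length slope or without the ZT20 libraries. In those fits the share of all genes called in VAT fell from 1.88% to 0.17% and 0.117%.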

How the data were processed

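Per the labels' protocols, oligo-dT primed the RNA of 1000 sorted cells, and after amplification and Nextera XT fragmentation a NextSeq500 read 25 nt from each end. The deposited values are raw counts per gene symbol. The submitters' processing notes name STAR 2.7.3a, featureCounts and the build mm10. Annotation, strand setting and the treatment of reads with several matches are not stated in those sources. The model fits used edgeR 4.0.16 under R 4.3.3 (filterByExpr on the 12 groups, TMM, robust quasi-likelihood fits). The tissue contrast was the mean of 6 VAT minus 6 spleen groups. Rhythm was a cosine and a sine of 24 h per tissue in 1 model, with amplitudes peak to trough. Errors of fold changes and amplitudes are SE, those of levels SD. Alternatives used DESeq2 1.42.0 and limma-voom (limma 3.58.1). Positions, exon unions and 25-base words come from GENCODE M21 (GRCm38), and 50 of 50 members matched by symbol.

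The members, gene lists and naming rule were chosen with earlier results of these data known. Full values were given, per family, for up to 3 called members of largest tissue difference, for called rhythms, for the 5 highest levels per length and for Hspa1a and Hspa1b; 3 other pathway genes were named in each direction. Bag5, Dnajc2, Dnajc3, Hsph1, Chordc1, Stip1, Hspd1 and further genes outside that rule were named after their values were seen. Same-letter VAT and spleen libraries did not deviate together (r over 0.1 in 2 of 17 pairs), so letters were not taken as pairs. No pair of replicates agreed within sampling noise.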

Additional observations from a re-analysis of the deposited data

How the results depend on the processing

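The tissue counts of 27 higher and 14 lower members stayed within 24 to 27 and 13 to 15 when 1 library was left out, and were 16 and 27 on library totals and 25 and 10 with no filter. On library totals the log2 fold changes of Hsp90ab1 (-0.15), Cdc37 (-0.24), Ahsa1 (-0.21), Dnaja2 (-0.12), Dnajb2 (-0.17), Dnajb6 (-0.08), Bag6 (-0.21), Tcp1 (-0.21) and Cct6a (-0.11) changed sign. Of these, Hsp90ab1, Cdc37, Ahsa1, Dnaja2, Bag6, Tcp1 and Cct6a were then called lower. Hspa4, Dnaja4, Dnajb4, Dnajb6, Dnajb11 and Hspb1 were no longer called on that scale. Stip1 was at 0.02 with no filter, and up to 0.02 (from -0.05) without 1 library. The rhythm counts were less stable. In VAT, 8 became 0 with the length slope, 1 with library totals or VAT libraries alone, 2 without ZT20, 4 with a replicate block by letter, 2 with group means and the slope, and 0 with 5 group means without ZT20. In spleen, 5 became 3 with the slope, 12 with DESeq2, 11 with no filter or 6 group means, 14 without ZT20, 9 with group means and the slope, and 8 with 5 group means without ZT20. Calls over all genes moved too. In VAT, 299 of 15910 became 27 with the slope, 196 with library totals and 124 with the block by letter. They became 42 of 13379 with VAT libraries alone and 17 of 14585 without ZT20. In spleen, 316 became 106 with the slope, 853 with DESeq2 and 322 with 6 group means. They became 1446 of 47525 with no filter and 284 of 14585 without ZT20. Without 1 library the counts of members ran from 0 to 13 in VAT and 4 to 10 in spleen. The VAT count was 0 without VAT ZT8 B, 1 without ZT8 C or ZT20 C, and 2 without ZT20 A. It was 4 without ZT0 A, ZT4 C or ZT8 D, 5 without ZT0 B, ZT12 B or ZT16 A, and 13 without ZT0 C. The spleen count was 10 without spleen ZT16 A. Over all genes, the VAT calls were 81 of 15876 without VAT ZT8 B and 1008 of 15844 without VAT ZT0 C. The spleen calls were 569 of 15833 without spleen ZT16 A. A rhythm difference was called in 0 members in every fit without 1 library. With no filter it was called in 4 members and in 1547 of 47525 genes, against 1 of 15910 in the main fit. The fits of group means with the slope, and of 5 group means without ZT20, were chosen after seeing the data. The replicate block by letter left 25 higher and 14 lower members and 5 spleen rhythms. The cause of these changes was not tested. Members under 10 CPM (Hspa1a, Hspa1b, Bag2, Dnaja4 and Hspb1) are limited by depth.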
